A study of Homo sapiens with 16 samples.

Results

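The genes described here are 10 feedback regulators and targets of canonical Wnt signalling: the feedback inhibitors AXIN2, NKD1, NOTUM, RNF43 and ZNRF3, the receptor LGR5, the beta-catenin partners TCF7 and LEF1, and the transcription factors ASCL2 and SP5. They were matched by gene symbol, the choice of genes having been made with earlier results of these data known, and all 10 were present among the 66023 genes counted. Their mRNA was measured by RNA-seq in 16 samples of 6 lines of SW480, a widely used human cell line of colon adenocarcinoma that carries mutant APC. Parental (n = 2) was not transduced. shScrambled (n = 2) carried a lentiviral shRNA of random sequence. shAjuba1 (n = 3) carried an shRNA against the coding region of AJUBA, which encodes a LIM domain scaffold protein, and shAjuba2 (n = 3) carried an shRNA against its non-coding region. Ajuba OE (n = 3) carried a CMV-driven construct for Ajuba with FLAG and HA tags, and Control (n = 3) carried the same vector after excision of the Ajuba insert. The transduced lines were selected with puromycin. Each line is a single stable line and its samples are described as technical replicates, so the p-values measure the spread between samples of a line, and an effect of the construct cannot be told apart from a difference between lines. Both knockdown lines share the shScrambled samples as their control.

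Canonical Wnt signalling is set by the amount of beta-catenin, which a complex built on APC and axin proteins marks for destruction until a Wnt ligand binds its receptors. Beta-catenin that escapes enters the nucleus, binds TCF and LEF factors and switches on target genes, and a good part of these encode inhibitors that feed back on the pathway. In the colon this programme maintains the stem cells at the base of the crypt, and loss of functional APC, as in SW480, leaves it active without a ligand.

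AJUBA itself was lower in the knockdown lines and higher in Ajuba OE. Its level, given in RPM, the count of a gene scaled to a library of 1000000 counts, was 83.4 and 81.6 in the shScrambled samples, 49.6, 47.3 and 53.5 in shAjuba1, and 60.3, 68.6 and 57.1 in shAjuba2. In the other lines it was 88.8 and 91.6 in Parental, 89.6, 100.5 and 89.4 in Control, and 549.7, 461.8 and 566.2 in Ajuba OE. Each modified line lay clear of its own control. The change was called for shAjuba1 (log2 fold change -0.73, adjusted p = 2.19e-05) and Ajuba OE (log2 fold change 2.56, adjusted p = 7.69e-05), whereas for shAjuba2 the log2 fold change of -0.46 did not pass (adjusted p = 0.0773). Here and throughout, a gene is called when edgeR's quasi-likelihood test gives it an adjusted p under 0.05 (Benjamini-Hochberg method, over every gene tested). The samples held 30132396 to 69684675 counted read pairs. The epithelial markers EPCAM, CDH1, KRT8, KRT18, KRT19, CDX2, VIL1 and CDH17 summed to between 2902 RPM (in a shAjuba2 sample) and 7008 RPM (in an Ajuba OE sample), against 8.95 to 29.6 RPM for 6 markers of leukocytes, fibroblasts and endothelium, of which PTPRC was at 0 in 10 samples and COL3A1 in 7. The other markers of this second set, COL1A1, VWF, CD3E and PECAM1, were at 0 in no sample. COL1A1 made up most of the sum, at 5.71 to 26.4 RPM, and VWF measured 1.89 to 5.29 RPM. CDH17, a cadherin of intestinal epithelium, reached at most 1.34 RPM and was the scarcest of the epithelial markers.

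In unmodified SW480 most members were abundant. Per kilobase of exon, the level in Parental was 156 ± 2.46 RPKM (RPM per kilobase, SD, n = 2) for AXIN2, above 99.3% of 19578 protein-coding genes. NKD1, RNF43 and SP5 followed at 35.1 ± 1.17, 31.8 ± 1.50 and 29.0 ± 2.86 RPKM, and ZNRF3, NOTUM, ASCL2, LEF1 and TCF7 lay between 18.1 and 6.41 RPKM. LGR5 stood apart at 0.153 ± 0.0196 RPKM, above 31.7% of protein-coding genes. Exons of NKD1, NOTUM, RNF43, TCF7 and LEF1 overlap counted genes on the other strand, and those of AXIN2 a counted gene on the same strand. The strand setting of the counting is not given in the sources used here, so some of their reads may be shared.

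All 10 members differed among the 6 lines, with adjusted p from 2.06e-08 (ASCL2) to 0.00624 (NKD1) in edgeR's quasi-likelihood test, against a background of 45.7% of 23597 genes called in the same test. The mean RPM of the highest line was 1.38 times that of the lowest for NKD1, 1.42 times for ZNRF3 and 1.53 times for AXIN2, but 2.57 times for SP5, 2.86 times for NOTUM, 6.505 times for ASCL2 and 21.3 times for LGR5. shScrambled was the lowest line for 6 members (AXIN2, RNF43, TCF7, LEF1, ASCL2 and SP5), and Ajuba OE was the highest for 5 (RNF43, ZNRF3, TCF7, ASCL2 and SP5).

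**Figure D1:**
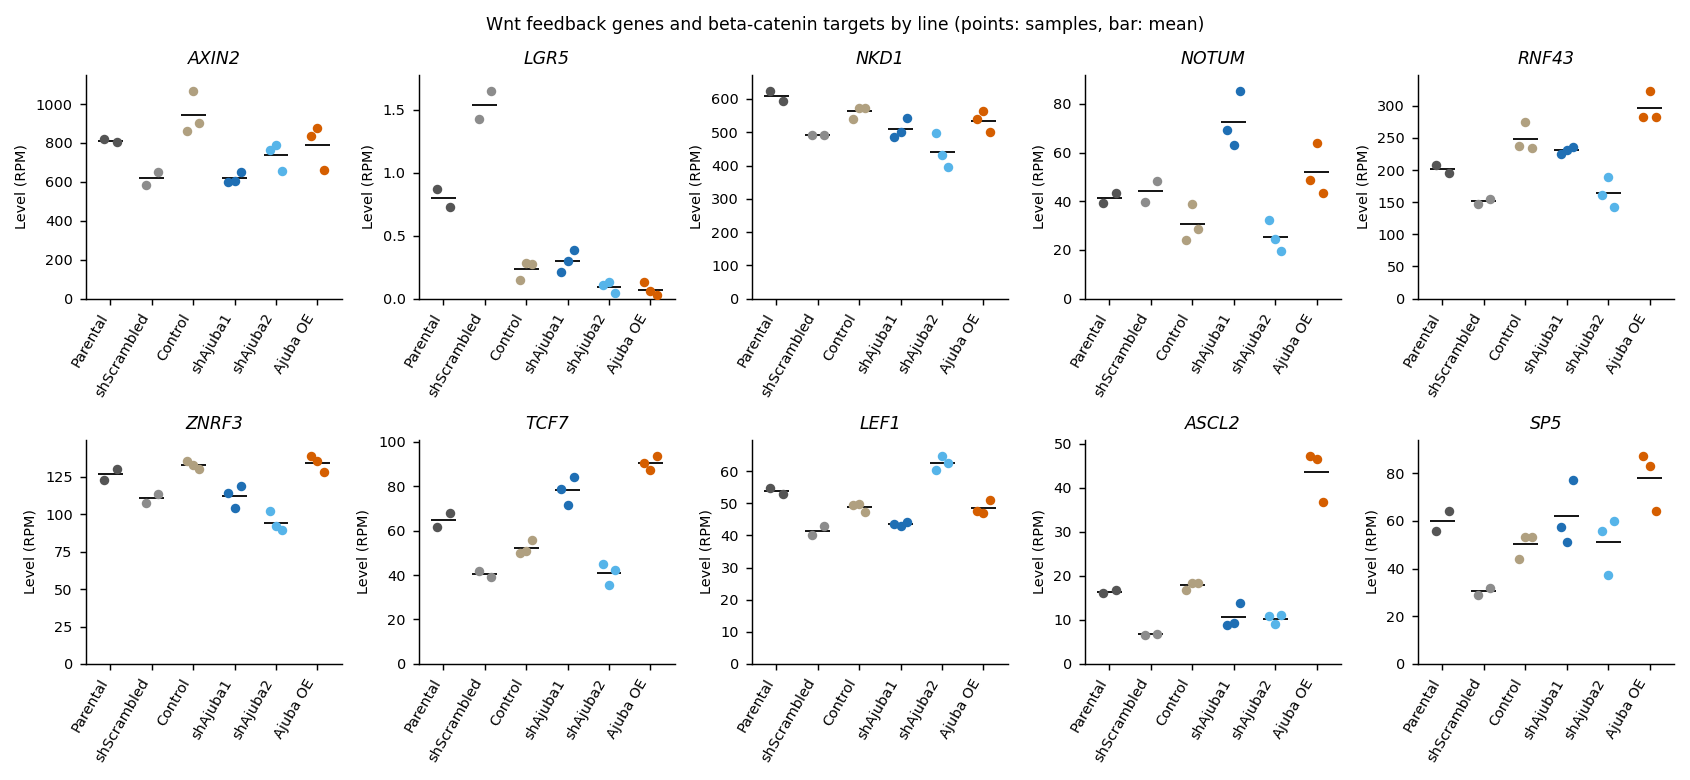
Level of each member in RPM (y axis, linear, from 0) in the 6 lines (x axis), 1 point per sample, with the line mean as a bar. ASCL2 in Ajuba OE (36.8 to 47.1 RPM) lies above all other samples, and shScrambled is the lowest line for 6 of the 10 members.

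To ask how the members move when AJUBA is reduced or raised, each modified line was compared with its own control. In shAjuba1, 6 of 10 members were called, 5 higher (NOTUM, RNF43, TCF7, ASCL2 and SP5) and LGR5 lower, where 38.4% of all 21082 genes tested were called, 18.2% higher and 20.2% lower. In shAjuba2, 3 of 10 were called, LEF1 higher and NOTUM and LGR5 lower, against a background of 7.63% (3.19% higher and 4.44% lower). This count was 1 without either shScrambled sample or without shAjuba2 replicate 1 or 3, where the share of all genes called was 0.95%, 0.784%, 2.24% and 6.33%, and 5 without shAjuba2 replicate 2, where it was 22.7%. In Ajuba OE, 3 of the 9 members that could be tested were called, TCF7, ASCL2 and SP5, all higher, against 5.43% of all genes (2.39% higher and 3.03% lower). The members had a median log2 fold change of 0.32 in shAjuba1 and 0.32 in Ajuba OE, and of 0.02 in shAjuba2, beside -0.01 over all genes in each. Between the knockdown lines 4 of 9 members tested were called, NOTUM, RNF43 and TCF7 higher in shAjuba1 and LEF1 higher in shAjuba2, against 19.6% of 21600 genes (9.47% higher in shAjuba1 and 10.1% lower), and this count was 2 without shAjuba1 replicate 1 or 2, with 9.83% and 10.8% of all genes called.

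AXIN2 is a scaffold of the destruction complex and a direct target of beta-catenin (chr17:65528563-65561648 on hg38, minus strand). It measured 584 and 651 RPM in shScrambled, 599, 607 and 648 RPM in shAjuba1, and 764, 791 and 658 RPM in shAjuba2. In Control it measured 861, 1066 and 901 RPM, in Ajuba OE 834, 875 and 663 RPM, and in Parental 820 and 802 RPM. The shAjuba1 samples lay between the shScrambled samples, each shAjuba2 sample was above both shScrambled samples, and replicate 2 of Ajuba OE reached into the range of Control. No comparison with the line's own control passed, with log2 fold changes of -0.01 ± 0.09 (SE, adjusted p = 0.914, edgeR) for shAjuba1, 0.21 ± 0.15 (adjusted p = 0.424) for shAjuba2 and -0.19 ± 0.15 (adjusted p = 0.568) for Ajuba OE. From the lowest mean to the highest the order was shScrambled, shAjuba1, shAjuba2, Ajuba OE, Parental and Control, and only the steps from shAjuba1 to shAjuba2 and from Parental to Control were free of overlap.

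NKD1, which binds Dishevelled and dampens the signal (chr16:50548396-50649249, plus strand), was the steadiest member. It measured 491 and 491 RPM in shScrambled, 485, 500 and 543 RPM in shAjuba1, and 496, 433 and 396 RPM in shAjuba2. Control gave 541, 574 and 574 RPM, Ajuba OE 540, 564 and 500 RPM and Parental 624 and 595 RPM. The means climbed from shAjuba2 through shScrambled, shAjuba1, Ajuba OE and Control to Parental, and of these steps the one to Parental alone was free of overlap. No contrast of a modified line with its control passed (edgeR, adjusted p from 0.410 to 0.974).

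NOTUM encodes a secreted carboxylesterase that strips the palmitoleate group from Wnt ligands (chr17:81952507-81961840, minus strand), and it had the largest difference between the knockdown lines of the 9 members tested. It measured 39.7 and 48.4 RPM in shScrambled, 69.5, 63.2 and 85.3 RPM in shAjuba1, and 32.2, 24.7 and 19.4 RPM in shAjuba2. Each shAjuba1 sample was above both shScrambled samples and each shAjuba2 sample was below both. NOTUM rose in shAjuba1 (log2 fold change 0.70 ± 0.12, adjusted p = 0.000653, edgeR), a call kept in all 14 alternatives, among them Parental as the control. In shAjuba2 it fell by 0.85 on the log2 scale (± 0.21, adjusted p = 0.0499, edgeR), which was lost in 7 of 14 alternatives: adjusted p was 0.184 and 0.335 without shScrambled replicates 1 and 2, 0.0687 and 0.0629 without shAjuba2 replicates 1 and 3, 0.0617 with library size alone, 0.0620 with the stricter count filter and 0.0562 against Parental. Tested directly, shAjuba1 was above shAjuba2 by 1.56 ± 0.18 on the log2 scale (adjusted p = 0.000487, edgeR). In Control it measured 24.0, 39.0 and 28.5 RPM, and in Ajuba OE 48.6, 63.8 and 43.5 RPM. The Ajuba OE samples lay above Control without overlap, but the log2 fold change of 0.84 ± 0.21 did not pass (adjusted p = 0.0731, edgeR). It passed in 6 of 15 alternatives, among them the fit without Control replicate 2 (adjusted p = 0.0268). Parental, at 39.3 and 43.6 RPM, overlapped shScrambled.

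RNF43 and ZNRF3 are related transmembrane E3 ubiquitin ligases that remove Frizzled receptors from the cell surface. RNF43 (chr17:58353676-58417595, minus strand) measured 147 and 155 RPM in shScrambled, 226, 231 and 235 RPM in shAjuba1, and 161, 189 and 142 RPM in shAjuba2. shAjuba1 lay above both other lines, whereas shAjuba2 and shScrambled overlapped. RNF43 rose in shAjuba1 (log2 fold change 0.59 ± 0.08, adjusted p = 6.90e-05, edgeR) but not in shAjuba2 (0.07 ± 0.16, adjusted p = 0.806), and shAjuba1 exceeded shAjuba2 by 0.54 ± 0.13 (adjusted p = 0.0193). That last call was lost without any 1 of the shAjuba1 samples or without shAjuba2 replicate 1 (adjusted p up to 0.0872). In Control RNF43 measured 237, 275 and 234 RPM, in Ajuba OE 282, 323 and 283 RPM, and in Parental 208 and 195 RPM. All Ajuba OE samples exceeded all others, although the log2 fold change against Control, 0.32 ± 0.12, did not pass (adjusted p = 0.195, edgeR).

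ZNRF3 (chr22:28883572-29057488, plus strand) varied little. It measured 108 and 114 RPM in shScrambled, 114, 104 and 119 RPM in shAjuba1, and 102, 91.9 and 89.3 RPM in shAjuba2. Control gave 136, 133 and 131 RPM, Ajuba OE 139, 136 and 128 RPM, and Parental 123 and 130 RPM. The shAjuba2 samples were the lowest and did not overlap with shScrambled, but the log2 fold change of -0.28 ± 0.12 did not pass (adjusted p = 0.186, edgeR), and those of shAjuba1 (0.01 ± 0.08) and Ajuba OE (0.08 ± 0.09) were smaller than their standard errors (adjusted p = 0.962 and 0.701).

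LGR5, the R-spondin receptor that marks crypt stem cells (chr12:71439798-71586310, plus strand), was scarce in every line, so its counts are given. There were 52 and 83 counts in shScrambled, 10, 9 and 14 in shAjuba1, and 5, 6 and 2 in shAjuba2. Parental had 35 and 39, Control 5, 14 and 12, and Ajuba OE 9, 3 and 1. As levels these are 1.43 and 1.65 RPM in shScrambled, 0.728 to 0.873 RPM in Parental and at most 0.386 RPM in the other 4 lines. shScrambled was the highest line and Parental the next, and the other 4 lines overlapped with neither. LGR5 fell by 2.42 ± 0.27 on the log2 scale in shAjuba1 (adjusted p = 1.96e-05, edgeR) and by 4.05 ± 0.37 in shAjuba2 (adjusted p = 0.00157), and both calls held in all 13 alternatives that could test it. In shAjuba2 against shScrambled it passed the expression filter through the shScrambled samples alone, 2 of 2 of which were above the cutoff of 0.215 RPM against 0 of 3 in shAjuba2, so its call there was favoured by the filter, and without LGR5 the count was 2 of 9 members. In shAjuba1 2 of 3 samples were above the cutoff themselves. Both calls were also made when every gene of at least 1 count was tested. From the summed counts, shScrambled was 5.38 times shAjuba1 (exact 95% interval 3.65 to 8.13, counting error only) and 16.7 times shAjuba2 (9.44 to 32.2). Against Parental the falls were 1.47 (adjusted p = 0.00341) and 3.12 (adjusted p = 0.0109) on the log2 scale, since shScrambled was itself above Parental by 0.96 ± 0.25 (adjusted p = 0.00510, edgeR). In shAjuba2 against Parental, 2 of 2 Parental samples and 0 of 3 shAjuba2 samples were above the cutoff. That call was therefore favoured by the filter as well. Low LGR5 was not confined to the knockdown lines. Control was below Parental by 1.70 ± 0.32 on the log2 scale, which did not pass (adjusted p = 0.0828, edgeR) but was called in 5 of 11 alternatives. The summed counts of Parental were 3.24 times those of Control (exact 95% interval 2.11 to 5.10, counting error only). In bulk RNA, fewer cells with LGR5 and less LGR5 mRNA per cell cannot be told apart.

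Control and Ajuba OE were too low in LGR5 for the expression filter of the main test. The summed counts of Control were 2.95 times those of Ajuba OE (exact 95% interval 1.50 to 6.14, counting error only). With every gene of at least 1 count tested, the log2 fold change of Ajuba OE against Control was -1.47 ± 0.56 (adjusted p = 0.241, edgeR). The direct comparison of shAjuba1 with shAjuba2 gave 1.66 ± 0.52 under the same filter (adjusted p = 0.0188).

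TCF7 encodes TCF-1, which binds DNA and recruits beta-catenin or, in its absence, Groucho/TLE corepressors (chr5:134114681-134151865, plus strand). It measured 41.9 and 39.3 RPM in shScrambled, 78.9, 71.5 and 84.3 RPM in shAjuba1, and 45.0, 35.5 and 42.2 RPM in shAjuba2. Every shAjuba1 sample was above every shScrambled and shAjuba2 sample, and the last pair overlapped. TCF7 rose in shAjuba1 (log2 fold change 0.93 ± 0.09, adjusted p = 7.64e-06, edgeR), whereas the value for shAjuba2 was -0.04 ± 0.13 (adjusted p = 0.879), and shAjuba1 exceeded shAjuba2 by 0.98 ± 0.12 (adjusted p = 0.000567). In Control it measured 49.8, 50.8 and 55.7 RPM and in Ajuba OE 90.2, 87.1 and 93.4 RPM. Ajuba OE was the highest line, with no sample of another line within its range. TCF7 rose in Ajuba OE (0.86 ± 0.09, adjusted p = 0.00213, edgeR), which held in all 15 alternatives, with adjusted p up to 0.0245 against Parental (61.6 and 67.8 RPM). TCF7 was therefore higher both in shAjuba1 and in the overexpressing line, each against its own control, but the difference of shAjuba1 from Parental was 0.24 ± 0.09 and did not pass (adjusted p = 0.0517, edgeR).

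LEF1, a DNA-binding partner of beta-catenin like TCF7 (chr4:108047545-108168956, minus strand), followed another order. It measured 40.0 and 43.0 RPM in shScrambled, 43.5, 42.9 and 44.1 RPM in shAjuba1, and 60.4, 64.6 and 62.7 RPM in shAjuba2. The shAjuba2 samples were the highest of all, while shAjuba1 and shScrambled overlapped. LEF1 rose in shAjuba2 (log2 fold change 0.54 ± 0.12, adjusted p = 0.0358, edgeR), but the call was lost without shScrambled replicate 1 or 2 (adjusted p = 0.383 and 0.280), without shAjuba2 replicate 1 or 3 (0.0957 and 0.0547) and against Parental (0.357). shAjuba1 was below shAjuba2 by 0.48 on the log2 scale (log2 fold change -0.48 ± 0.10, adjusted p = 0.00945, edgeR), a call lost without shAjuba1 replicate 1 or 2 (adjusted p up to 0.0693). Control gave 49.4, 49.7 and 47.4 RPM, Ajuba OE 47.6, 46.9 and 51.2 RPM and Parental 54.9 and 52.9 RPM. Control and Ajuba OE overlapped, and their log2 fold change, 0.06 ± 0.09, did not pass (adjusted p = 0.798, edgeR).

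ASCL2, a basic helix-loop-helix factor of crypt stem cells (chr11:2268498-2270588, minus strand), showed the widest range of the well-expressed members. It measured 47.1, 46.6 and 36.8 RPM in Ajuba OE, 16.7, 18.3 and 18.5 RPM in Control, and 16.2 and 16.7 RPM in Parental. Ajuba OE lay far above the other lines. ASCL2 rose in Ajuba OE (log2 fold change 1.35 ± 0.12, adjusted p = 0.00109, edgeR), a call that held in all 15 alternatives with log2 fold changes of 1.29 to 1.46. In shScrambled it measured 6.56 and 6.82 RPM, in shAjuba1 8.83, 9.39 and 13.9 RPM, and in shAjuba2 10.8, 9.01 and 11.1 RPM. Both knockdown lines were above shScrambled but below Parental, without overlap on either side. ASCL2 rose in shAjuba1 against shScrambled (0.66 ± 0.17, adjusted p = 0.00835, edgeR), a call lost without shScrambled replicate 1 or 2 (adjusted p = 0.0776 and 0.0692), and for shAjuba2 the value was 0.57 ± 0.15 (adjusted p = 0.0604). Against Parental the direction turned, and ASCL2 was lower by 0.65 in shAjuba1 (log2 fold change -0.65 ± 0.16, adjusted p = 0.00724) and by 0.74 in shAjuba2 (-0.74 ± 0.14, adjusted p = 0.0287).

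SP5 encodes a zinc finger transcription factor and a direct target of beta-catenin (chr2:170715337-170718078, plus strand). The 250 bases before its start are shown because they carry 3 of the short words that TCF and LEF factors bind, and because RNF43, TCF7 and LEF1, the other members with a promoter entry in the RefSeq table used, hold none in the same window. The words searched were CTTTGAA and CTTTGAT on both strands, and no match overlaps another. The sequence is the plus strand of chr2:170715087-170715336 (RefSeq, GRCh38.p14), and the capitals mark the matches, with TTCAAAG being CTTTGAA on the minus strand.
SP5: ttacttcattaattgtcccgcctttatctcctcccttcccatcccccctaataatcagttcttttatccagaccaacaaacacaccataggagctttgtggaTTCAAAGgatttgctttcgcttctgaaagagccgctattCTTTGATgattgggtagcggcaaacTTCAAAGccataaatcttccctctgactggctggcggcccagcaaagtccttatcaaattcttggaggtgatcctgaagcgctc
The matches lie 148 to 142, 109 to 103 and 84 to 78 bases before the start. Of 35116 RefSeq promoters cut to the same 250 bases, 5.94% hold at least 1 of these words and 7 hold 3 or more. A match describes these letters only, and binding was not measured.

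SP5 measured 28.9 and 32.0 RPM in shScrambled, 57.6, 51.2 and 77.3 RPM in shAjuba1, and 55.9, 37.4 and 59.8 RPM in shAjuba2. All knockdown samples were above both shScrambled samples. SP5 rose in shAjuba1 (log2 fold change 1.01 ± 0.14, adjusted p = 0.000125, edgeR), whereas the value for shAjuba2 was 0.70 ± 0.20 (adjusted p = 0.0755), and passed without shAjuba2 replicate 2 (adjusted p = 1.69e-05). Parental, at 55.95 and 64.3 RPM, overlapped both knockdown lines, and against it the log2 fold changes were 0.01 ± 0.14 (adjusted p = 0.952) and -0.30 ± 0.20 (adjusted p = 0.322). In Control it measured 44.01, 53.4 and 53.4 RPM and in Ajuba OE 87.1, 83.1 and 64.0 RPM. The Ajuba OE samples lay above Control. SP5 rose in Ajuba OE (0.70 ± 0.14, adjusted p = 0.0313, edgeR), but the call was lost without any 1 of the Control samples (adjusted p = 0.104, 0.0550 and 0.116), without Ajuba OE replicate 1 or 2 (0.113 and 0.0643) and against Parental (0.155).

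Of the control lines, shScrambled differed from Parental in most of these genes, which bears on each value above that takes it as the control. shScrambled was compared with Parental to see what the lentiviral shRNA vector line looks like without a target. Of 10 members, 8 were called, against 30.7% of 21289 genes: LGR5 was higher, and AXIN2, NKD1, RNF43, TCF7, LEF1, ASCL2 and SP5 were lower (15% and 15.6% of all genes were called higher and lower). ASCL2 fell by 1.30 ± 0.11 on the log2 scale (adjusted p = 4.50e-09, edgeR), SP5 by 0.99 ± 0.09 (adjusted p = 6.74e-09) and TCF7 by 0.68 ± 0.08 (adjusted p = 7.72e-07), with no overlap of samples. The falls of AXIN2, NKD1, RNF43 and LEF1 were between 0.32 and 0.42 (adjusted p from 0.000224 to 0.00423). ZNRF3 was at the threshold (log2 fold change -0.20 ± 0.08, adjusted p = 0.0501) and NOTUM did not pass (0.09 ± 0.09, adjusted p = 0.507). LGR5 lost its call without shScrambled replicate 2 (adjusted p = 0.0963) and with DESeq2 (adjusted p = 0.0604), and NKD1 without Parental replicate 1 (adjusted p = 0.0576). When all 16 samples shared 1 fit, 4 of the 8 calls remained, those of TCF7, LEF1, ASCL2 and SP5, and the share of all genes called was 7.19%. Control against Parental gave 0 called members by edgeR (against 0.37% of all genes, 0.0508% higher and 0.319% lower). By edgeR 3 were at an unadjusted p under 0.05 (LGR5, RNF43 and TCF7), beside 4219 of 21644 genes. DESeq2 called 1 member, LGR5, beside 2.62% of all genes.

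**Figure D2:**
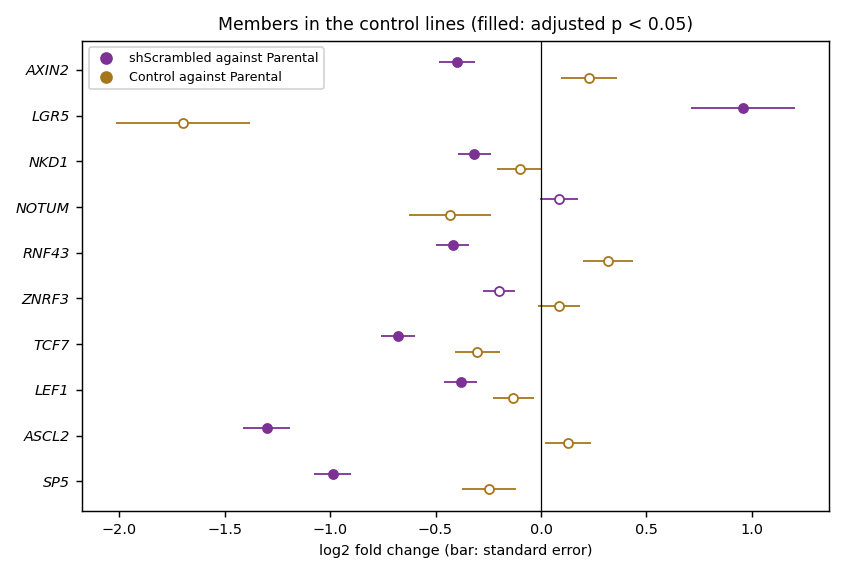
log2 fold change of each member (x axis) in shScrambled and in Control against Parental, with its standard error as a bar, filled where the adjusted p was under 0.05. ASCL2 and SP5 lie at -1.30 and -0.99 in shScrambled, and no point of Control is filled.

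With Parental in place of the line's own control, most called members of the knockdown lines were lower. In shAjuba1 6 of 10 members were called, as many as against shScrambled, where 38.1% of all genes were called (17.6% higher and 20.5% lower), but now NOTUM was higher while AXIN2, LGR5, NKD1, LEF1 and ASCL2 were lower, and RNF43, TCF7 and SP5 did not pass (adjusted p = 0.0849, 0.0517 and 0.952, edgeR). The log2 fold changes of AXIN2, NKD1 and LEF1 were -0.42 ± 0.08, -0.29 ± 0.08 and -0.34 ± 0.08 (adjusted p = 0.00128, 0.0137 and 0.00553). In shAjuba2 4 members were called, all lower, against 8.14% of all genes (4.26% higher and 3.88% lower): LGR5, ZNRF3 (-0.49 ± 0.12, adjusted p = 0.0476), TCF7 (-0.72 ± 0.13, adjusted p = 0.0269) and ASCL2. In Ajuba OE 4 members were called, against 7.15% of all genes (2.3% higher and 4.84% lower): RNF43 (0.61 ± 0.12, adjusted p = 0.0238), TCF7 (0.53 ± 0.10, adjusted p = 0.0245) and ASCL2 (1.45 ± 0.14, adjusted p = 0.000907) were higher and LGR5 was lower (-3.22 ± 0.46, adjusted p = 0.00667). In both shAjuba2 and Ajuba OE, LGR5 passed the filter through the Parental samples alone. Its calls there were thus favoured by the filter, and LGR5 is 1 of the 4 called members in each. The medians of the members were -0.24 for shAjuba1 and -0.51 for shAjuba2, and 0.26 for Ajuba OE, on the log2 scale. Which of shScrambled and Parental is the better reference for the knockdown lines was not tested.

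**Figure D3:**
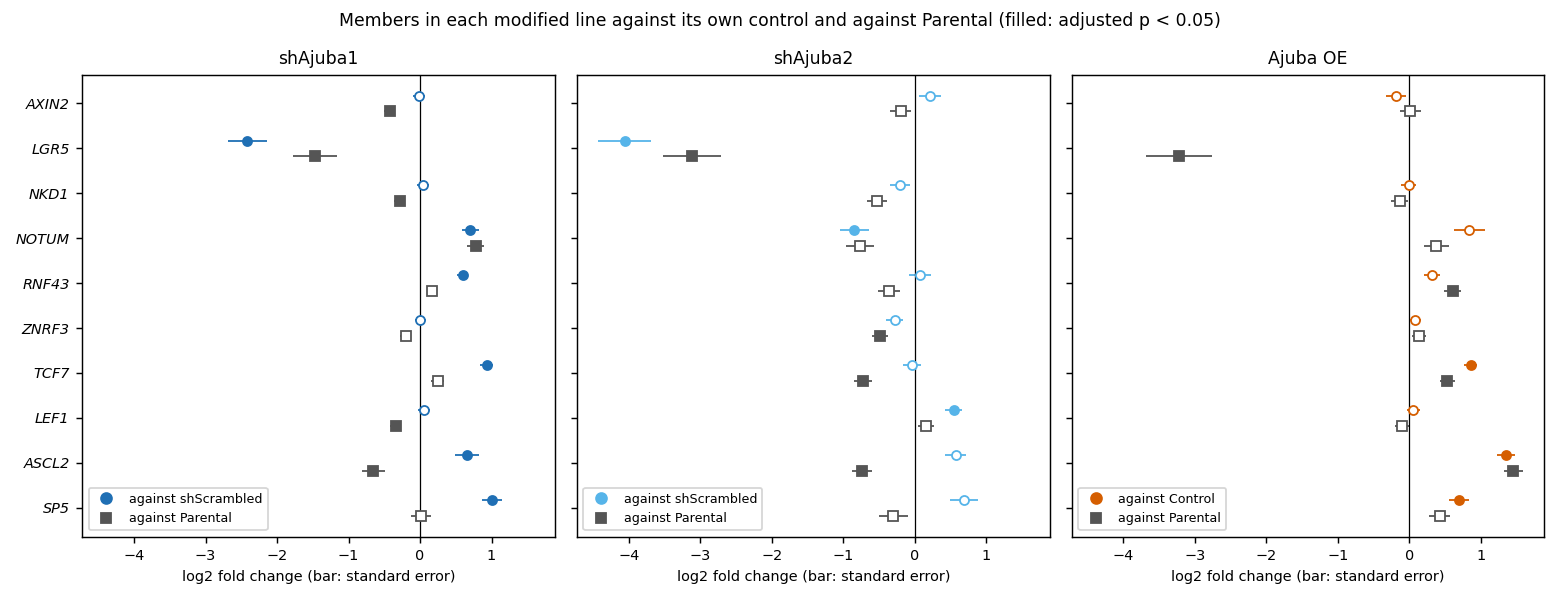
log2 fold change of each member (x axis) in shAjuba1, shAjuba2 and Ajuba OE against the line's own control (circles) and against Parental (squares), with its standard error as a bar, filled where the adjusted p was under 0.05. ASCL2 in shAjuba1 moves from 0.66 to -0.65, while NOTUM in shAjuba1 (0.70 and 0.78) and ASCL2 in Ajuba OE (1.35 and 1.45) stay on one side.

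Outside the members, the pathway was followed through 4 lists of genes. The destruction complex list holds 13 genes. In shAjuba1, 3 rose, AMER1 (0.61 ± 0.09, adjusted p = 0.000245, edgeR), CSNK1D (0.59 ± 0.10, adjusted p = 0.000597) and the scaffold AXIN1 (0.50 ± 0.09, adjusted p = 0.000664). The 3 that fell, named after their values were seen, were GSK3B (-0.43 ± 0.08, adjusted p = 0.000966, edgeR), BTRC (-0.38 ± 0.09, adjusted p = 0.00564) and TNKS (-0.38 ± 0.09, adjusted p = 0.00687). In shAjuba2 and Ajuba OE 0 of 13 were called by edgeR, with 4 and 3 at an unadjusted p under 0.05 and 3 and 0 called by DESeq2. The median log2 fold change of the list was 0.14, 0.11 and 0.02 in the 3 lines. The edgeR calls stand beside 38.4% (shAjuba1), 7.63% (shAjuba2) and 5.43% (Ajuba OE) of all genes called. DESeq2 called 11.1% of all genes in shAjuba2 and 8.34% in Ajuba OE. An unadjusted p under 0.05 by edgeR was reached by 5882 of 22446 genes in shAjuba2 and by 3928 of 21140 in Ajuba OE.

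Of 8 receptors and transducers, LGR6, a receptor related to LGR5, rose most. It measured 10.9 and 11.6 RPM in shScrambled, 47.6, 46.4 and 56.8 RPM in shAjuba1, and 10.7, 11.3 and 9.38 RPM in shAjuba2. The shAjuba1 samples were above all other samples. LGR6 rose by 2.14 ± 0.11 on the log2 scale in shAjuba1 (adjusted p = 3.56e-08, edgeR), opposite in direction to LGR5. In Parental it measured 20.7 and 21.9 RPM, again above shScrambled. LGR4, another receptor of that family, measured 14.1, 11.5 and 11.6 RPM in Control and 7.59, 6.77 and 6.84 RPM in Ajuba OE. It fell by 0.74 ± 0.12 on the log2 scale in Ajuba OE (adjusted p = 0.0146, edgeR), a call lost without Control replicate 3 or Ajuba OE replicate 1 or 3 (adjusted p up to 0.0874). CTNNB1, which encodes beta-catenin, was not called in any modified line against its own control, and was lower in shScrambled than in Parental (-0.33 ± 0.08, adjusted p = 0.00385), a call lost with all 16 samples in 1 fit (adjusted p = 0.201). The counts of this list were 2 of 8 called in shAjuba1, 0 in shAjuba2 by edgeR (2 at an unadjusted p under 0.05, 0 by DESeq2) and 1 in Ajuba OE, beside 38.4%, 7.63% and 5.43% of all genes. A difference of the list from all genes was not tested.

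Among 15 nuclear partners of beta-catenin, Groucho/TLE corepressors were called in each modified line. TLE1 measured 15.2 and 14.7 RPM in shScrambled, 3.58, 3.32 and 4.14 RPM in shAjuba1, and 8.51, 7.64 and 9.96 RPM in shAjuba2. It measured 8.42, 8.91 and 9.86 RPM in Control and 2.05, 1.75 and 1.53 RPM in Ajuba OE. TLE1 was thus lower in all 3 modified lines than in their controls, with no overlap. The log2 fold changes were -2.03 ± 0.12 (adjusted p = 8.61e-08, edgeR), -0.83 ± 0.15 (adjusted p = 0.0190) and -2.28 ± 0.15 (adjusted p = 0.000253), of which the call in shAjuba2 was lost against Parental (9.55 and 11.3 RPM) and without shScrambled replicate 1 or 2 or shAjuba2 replicate 1 (adjusted p up to 0.214). TLE4 fell in shAjuba1 (-1.31 ± 0.10, adjusted p = 8.90e-07) and shAjuba2 (-0.67 ± 0.13, adjusted p = 0.0223), the second call being lost in the same 4 alternatives (adjusted p up to 0.265). TLE3 rose in Ajuba OE (0.61 ± 0.09, adjusted p = 0.00696), a call lost without Control replicate 3 (adjusted p = 0.0685), and in shAjuba1 (0.26 ± 0.09, adjusted p = 0.0344), where the call was lost in 7 of 14 alternatives (adjusted p up to 0.341), among them those without shScrambled replicate 1 or 2, without shAjuba1 replicate 1 and against Parental. TLE2, which was not among the 3 genes of smallest p and was added after its values were seen, fell in Ajuba OE (-1.50 ± 0.28, adjusted p = 0.0231, edgeR) from 2.21, 3.96 and 2.85 RPM in Control to 0.804, 1.27 and 1.01 RPM, a call lost without Control replicate 3 or Ajuba OE replicate 1 or 3 (adjusted p up to 0.0999). PYGO1, which links beta-catenin to chromatin, fell by 2.71 ± 0.21 in Ajuba OE (adjusted p = 0.000605) from 1.63, 1.49 and 1.48 RPM in Control to 0.230, 0.229 and 0.201 RPM. The list had 4, 2 and 4 of 15 called in shAjuba1, shAjuba2 and Ajuba OE, with medians of 0.12, 0.11 and -0.01. These counts stand beside 38.4%, 7.63% and 5.43% of all genes called. Whether the share of calls in the list differs from that of all genes was not tested.

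The last list holds 18 other reported Wnt targets. In shAjuba1 11 of 15 tested were called, 7 higher and 4 lower, against 38.4% of all genes (18.2% higher and 20.2% lower). BAMBI, a pseudoreceptor of the TGF-beta family, rose by 1.09 ± 0.08 on the log2 scale (adjusted p = 6.97e-07, edgeR), the nuclear receptor PPARD by 1.29 ± 0.10 (adjusted p = 8.32e-07) and MYC by 0.94 ± 0.08 (adjusted p = 1.57e-06). MYC measured 100.4 and 94.1 RPM in shScrambled, 191, 187 and 189 RPM in shAjuba1, and 135 and 134 RPM in Parental. PPARD and MYC kept their calls against Parental, but BAMBI did not (adjusted p = 0.372). The 4 lower ones, named after their values were seen, were PROX1 (-0.84 ± 0.10, adjusted p = 2.83e-05, edgeR), APCDD1 (-0.42 ± 0.08, adjusted p = 0.00119), SOX9 (-0.30 ± 0.08, adjusted p = 0.0116) and CD44 (-0.24 ± 0.08, adjusted p = 0.0240). In shAjuba2 2 of 16 were called, against 7.63% of all genes, both transcription factors: SOX4 rose by 1.29 ± 0.13 (adjusted p = 0.00272) and TBX3 by 0.71 ± 0.13 (adjusted p = 0.0218). The SOX4 call was lost without shScrambled replicate 2 (adjusted p = 0.0716) and that of TBX3 without either shScrambled sample or shAjuba2 replicate 1 (adjusted p up to 0.269). In Ajuba OE 6 of 15 were called, 4 higher and 2 lower, against 5.43% of all genes (2.39% higher and 3.03% lower). The homeobox factor PROX1 rose from 33.4, 32.3 and 35.2 RPM in Control to 73.6, 75.8 and 71.2 RPM (1.19 ± 0.09, adjusted p = 0.000605, edgeR). ETS2 rose by 0.94 ± 0.10 (adjusted p = 0.00175), and SOX4 fell from 119, 100.6 and 105 RPM to 49.3, 41.7 and 49.5 RPM (-1.15 ± 0.11, adjusted p = 0.00129). MYC, named here after its values were seen, also rose in Ajuba OE, from 130.3, 124 and 131 RPM to 227, 187 and 244 RPM (0.83 ± 0.11, adjusted p = 0.00580, edgeR), and this call held in all 15 alternatives. SOX4 was at its highest in shAjuba2 (228, 240 and 239 RPM) and at its lowest in Ajuba OE. The median log2 fold change of the list was 0.21, 0.03 and 0.22.

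**Figure D4:**
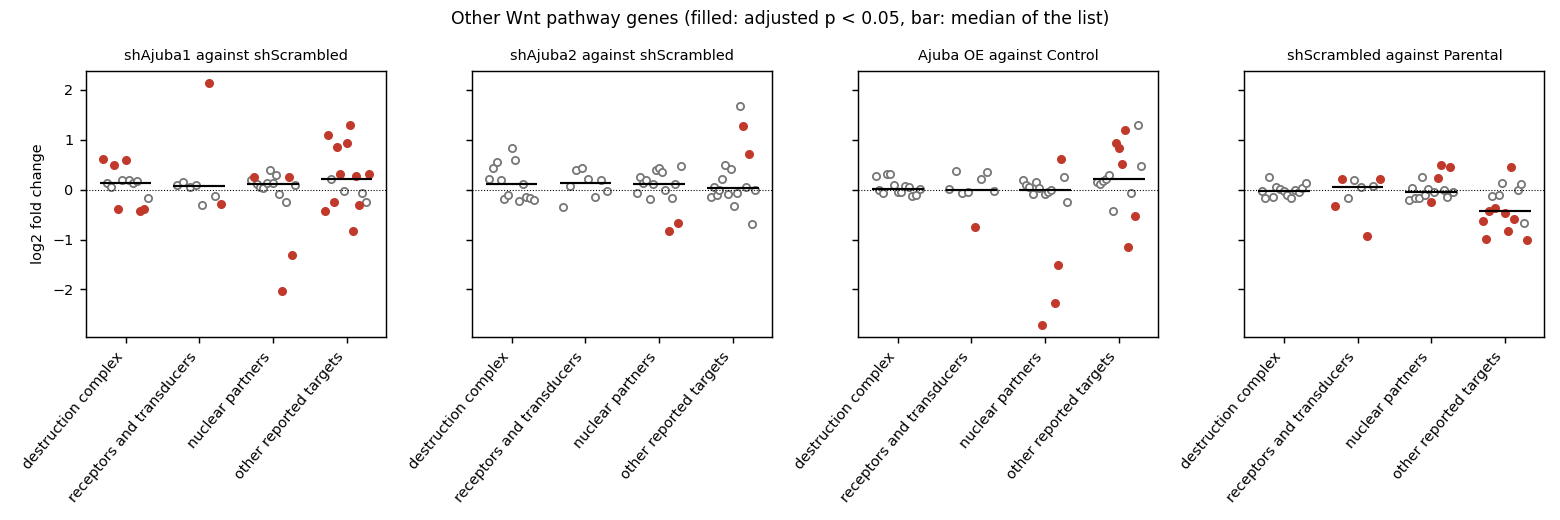
log2 fold change (y axis) of each tested gene of the 4 pathway lists in 4 comparisons, filled where the adjusted p was under 0.05, with the median of each list as a bar. In shScrambled against Parental the other reported targets have a median of -0.42, with 8 of 15 called lower.

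In shScrambled against Parental the other targets were lower in 8 of 15 and higher in 1, against 15.6% and 15% of all genes, with a median of -0.42 beside 0.03 over all genes. BAMBI fell by 0.99 ± 0.08 on the log2 scale (adjusted p = 8.77e-10, edgeR), TNFRSF19 by 1.01 ± 0.08 (adjusted p = 1.10e-09) and PPARD by 0.82 ± 0.08 (adjusted p = 3.73e-08). Of the epithelial markers, 6 of 8 were called in this comparison, 5 of them lower, against 30.7% of all genes called and 15.6% called lower. Among the lower ones were CDH1, the adherens junction cadherin (-1.52 ± 0.11, adjusted p = 2.56e-10, edgeR), and CDX2, the intestinal homeobox factor (-0.88 ± 0.11, adjusted p = 1.31e-06). VIL1 was the 1 called higher (0.38 ± 0.08, adjusted p = 0.000982). The summed level of the epithelial markers was 6092 to 6607 RPM in Parental and 4064 to 4204 RPM in shScrambled. It was 5754 to 7008 RPM in Ajuba OE and 4851 to 5968 RPM in Control, and these ranges overlapped. Most of the sum came from KRT8 and KRT18, at 1487 to 3165 and 1152 to 2847 RPM over all samples. Gene by gene, 3 of 8 were called in Ajuba OE against Control, all higher, against 5.43% of all genes (2.39% higher). They were VIL1 (1.03 ± 0.09, adjusted p = 0.00109, edgeR), CDH1 (0.77 ± 0.13, adjusted p = 0.0132) and CDX2 (0.64 ± 0.11, adjusted p = 0.0165). Each call was lost against Parental. In shAjuba1 5 of 8 were called, 3 higher and 2 lower, against 38.4%. In shAjuba2 VIL1 alone was called, lower (-2.38 ± 0.16, adjusted p = 0.000603), against 7.63%. The part of these markers in the values of the members was not tested.

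**Figure D5:**
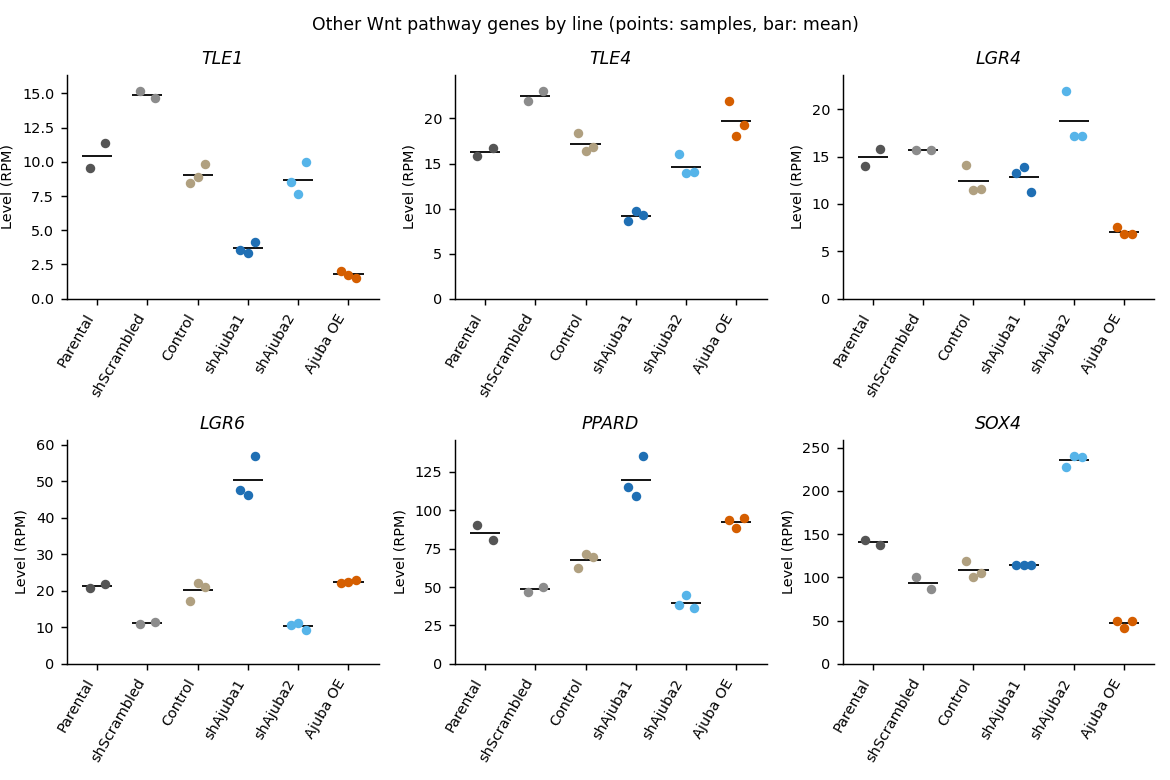
Level in RPM (y axis, linear, from 0) of TLE1, TLE4, LGR4, LGR6, PPARD and SOX4 in the 6 lines (x axis), 1 point per sample, with the line mean as a bar. TLE1 is lowest in Ajuba OE (1.53 to 2.05 RPM), LGR6 highest in shAjuba1 (46.4 to 56.8 RPM) and SOX4 highest in shAjuba2 (228 to 240 RPM).

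The genes whose log2 level followed AXIN2 most closely over the 16 samples were the antisense gene HOXC-AS1 (Pearson's r = 0.92), ZDHHC8BP (r = 0.92) and FBXO36P1 (r = 0.88), of 23597 genes compared. Among the members, r with AXIN2 was 0.63 for ASCL2, 0.61 for ZNRF3 and for NKD1, 0.56 for RNF43, and -0.20 for LGR5 and NOTUM. These points share 6 lines of 2 or 3 samples, so they are not independent and r is given as a description.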

How the data were processed

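RNA-seq was available for 16 samples of 6 SW480 lines, grouped by line as the labels give them. The authors deposited counts of read pairs per Ensembl gene, without normalization: they prepared stranded mRNA libraries, used HISAT2 for alignment to hg38 and featureCounts for counting over exons. Versions, the strand setting and the annotation release are not given in the sources used here. Gene symbols and positions came from GENCODE release 44, in which 56434 of the 66023 genes, with 99.8% of all counts, were found by identifier. Total counts were 30132396 to 69684675 per sample.

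RPM is the count divided by the sample total, times 1000000. RPKM divides RPM further by the merged exon length. Tests used edgeR 4.0.16 in R 4.3.3 (with limma 3.58.1): filterByExpr with the line as the group, TMM normalization, and the two-sided quasi-likelihood F test on the samples of the lines compared, with Benjamini-Hochberg adjustment over all genes tested and a threshold of 0.05. TMM factors were 0.939 to 1.06 and lowest in Ajuba OE, so ratios of RPM differ slightly from fold changes. Standard errors are the size of the log2 fold change over the square root of F. Tables and figures were made with Python 3.11.15, pandas 2.3.3, scipy 1.17.1 and matplotlib 3.10.9. The fits were tested on simulated data.

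The members and the gene lists were chosen with earlier results of these data known. All 10 members and AJUBA are named, and up to 3 called genes per list and comparison by the smallest p, with the 3 genes most correlated with AXIN2 on log2 CPM (prior count 2). A few others were named after their values were seen. The alternatives were other size factors, library size alone, 2 other filters, DESeq2 1.42.0, all 16 samples in 1 fit, the replicate number as a block, each replicate left out, replicate 2 of both lines left out, and Parental as the control. No 2 samples of a line agreed within sampling noise.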

Additional observations from a re-analysis of the deposited data

Results flagged for a closer look

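Between the knockdown lines, which share the shScrambled control, 4 members differed when the lines were compared directly with edgeR's quasi-likelihood test. NOTUM (log2 fold change 1.56 of shAjuba1 over shAjuba2), TCF7 (0.98) and RNF43 (0.54) were higher in shAjuba1, and LEF1 (-0.48) was lower. NOTUM lay above shScrambled in shAjuba1 and below it in shAjuba2. AJUBA itself did not pass between these lines (log2 fold change -0.26 ± 0.12, adjusted p = 0.141). Explanations were not tested.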

How the results depend on the processing

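In all, 83 counts of called members stayed within 1.5 times the main count and 19 moved beyond it, 37 values of single members turned sign, 34 gained and 36 lost a call, and 55 of 60 levels moved by less than 1 SD with TMM-scaled library sizes. For shAjuba2 against shScrambled the count of 3 became 1 with at least 10 counts in every sample, 5 with DESeq2, 5 with all 16 samples in 1 fit, 5 without replicate 2 of both lines (6.85%, 11.1%, 15.6% and 13.4% of all genes called), and 1 to 5 with single samples left out. For shAjuba1 against shAjuba2 the count was 2 to 6 with single samples left out, where 9.83% to 26.9% of all genes were called. For shScrambled against Parental it was 4 with all 16 samples (7.19%). For Control against Parental it was 2 with every gene of at least 1 count (4.81%), 1 with DESeq2 (2.62%) and 1 with all 16 samples (2.25%). With single Control samples left out it was 0 to 2 there (0.0847% to 4.73%).

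The replicate numbers were tried as a block. The deviations of same-numbered samples from their line means correlated unevenly: r was 0.0995, 0.505 and -0.0492 for replicates 1, 2 and 3 of Ajuba OE and Control, 0.069 and 0.188 for replicates 1 and 2 of shAjuba2 and shScrambled, and between -0.131 and 0.0528 elsewhere. Only 2 of 6 samples of Ajuba OE and Control, and 1 of 6 of the knockdown lines, correlated best with their own number, so the numbers were not taken to pair the samples. With 3 samples per line this check is too coarse to exclude pairing or a shift shared by same-numbered samples. With the replicate block the counts were 5 for shAjuba2 against shScrambled (24% of all genes called), 5 for Ajuba OE against Control (24.3%) and 1 for Control against Parental (1.47%), and stayed the same in size for the others. NKD1 (-0.0032) and ZNRF3 (-0.026) in shAjuba1 turned sign under it, both uncalled.

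With Parental as the control, ASCL2 (-0.65), NKD1 (-0.29), ZNRF3 (-0.20) and LEF1 (-0.34) in shAjuba1, AXIN2 (-0.20), RNF43 (-0.36), ASCL2 (-0.74) and SP5 (-0.30) in shAjuba2, and AXIN2 (0.012) and LEF1 (-0.10) in Ajuba OE turned sign. The cause was not tested. The other sign changes were of uncalled values near 0. They were AXIN2 in shAjuba1 (0.0011 with library size alone, 0.0020 with all 16 samples, 0.082 without replicate 2 of both lines, and -0.070 to 0.057 with single samples left out), NKD1 (-0.0012 to 0.070) and ZNRF3 (-0.023 to 0.056) in shAjuba1, RNF43 in shAjuba2 (-0.016 without replicate 2 of both lines, -0.059 to 0.19), TCF7 in shAjuba2 (0.011 with library size alone, -0.088 to 0.042), NKD1 in Ajuba OE (0.0083 with RLE size factors, 0.017 with every gene, 0.0083 with DESeq2, 0.0062 with all 16 samples, -0.063 to 0.040), LEF1 in Ajuba OE (-0.0081 with library size alone), ASCL2 between the knockdown lines (-0.12 to 0.23) and NOTUM in shScrambled (-0.068 to 0.20).

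The filter of 10 counts in every sample removed LGR5, so it has no value there. Depth limits LGR5 alone among the members, with 1 to 83 counts per sample, whereas every other member had at least 239 counts in each sample.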
